A study of Mus musculus with 24 samples.

Results

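The genes described here encode proteases that cut extracellular matrix and cell-surface proteins, and the inhibitors of those proteases. Members were chosen by symbol alone, as every gene named Mmp, Adam or Adamts with its number or suffix, plus the inhibitors Timp1 to Timp4, provided the gene had a row in all 4 deposited expression tables. No difference between groups entered this rule, but it was set with earlier results of these data known. A gene low in a group can lack a row in its table, so level bore on membership. This gave 39 genes of 14014 listed in all tables. A further 6 genes with matching symbols were listed in fewer tables and are not members. Timp1, Adam8 and Adamts18 had rows in 3 tables, and Mmp3, Mmp12 and Adamtsl4 only in the table of PI KO and PI WT. Mmp2 and Mmp9, the gelatinases, were not among the 45 genes found with matching symbols, so they were not analysed here.

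The samples were cortex of male mice aged 3 to 4 months, all subjected to transient middle cerebral artery occlusion (tMCAo), in which a filament blocks the artery. The artery was blocked for 1 h and blood flow was then restored for 1 day. WT animals were wild type. KO animals lacked the circular RNA ciRS-7 (Cdr1as), known as a binding partner of miR-7. The strain label, C57BL/6N carrying an edit of Cdr1as, was the same for WT and KO animals, and no unoperated group was among the samples used here. CL and PI mark the 2 cortex samples of each animal. The labels do not spell the marks out, and they are used as given. The 24 libraries formed 4 groups of 6: CL and PI of WT animals, and CL and PI of KO animals.

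Matrix metalloproteinases (MMPs) are zinc proteases, either secreted or tethered to the membrane, and tissue inhibitors of metalloproteinases (TIMPs) block their active site. ADAM proteases sit in the membrane and release the outer part of other membrane proteins, while several neuronal ADAMs lack protease activity and act in adhesion. ADAMTS proteases are secreted, carry thrombospondin motifs, and include the enzymes that cut the lecticans (aggrecan, brevican, neurocan and versican) of the brain matrix. In ischaemic brain the family is known for its part in opening the blood-brain barrier and in remodelling the matrix around vessels and synapses.

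Levels are given as CPM, read counts scaled to a common library total, and differences as log2 differences of trimmed means with the standard error (SE) of the difference. All groups had n = 6 libraries. The deposited values of each gene had been drawn in so that the 2 lowest libraries of a group were tied, as were the 2 highest, in 100% of genes. The lowest and highest library of a group could therefore not be recovered. Here the range of a group runs from the second lowest to the second highest library, and groups are said not to overlap when these ranges do not. A gene was called when the Benjamini-Hochberg adjusted p of a moderated trimmed-mean test (limma) was under 0.05 over all genes of the table. Effective depth was 5.27 to 10.5 M reads (megareads) in all but 1 library. CL KO replicate 6 stood apart, with 3.75 to 3.84 M reads and a value among the tied extremes in 89.5% of genes, against 53.0% to 80.7% in the other libraries. Results in KO are therefore also given without it. Its limit of 3 reads was 0.782 to 0.799 CPM, which covers counting error only, and Adam18 was the only member with recoverable values at or under the limit of its group. Cdr1as ranged from 3386 to 3809 CPM in CL WT and from 2594 to 3004 CPM in PI WT. In the KO groups its second highest library was at 0.148 CPM in CL and 0.169 CPM in PI, under the limit.

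The members differed widely in level in CL WT cortex. Per kilobase of annotated exon, the most abundant member in CL WT was Adam22, a catalytically inactive synaptic receptor for the secreted protein LGI1, at 35.8 CPM per kb. Adam10, the main sheddase of the amyloid precursor protein and of N-cadherin, followed at 28.8 CPM per kb. Timp2 stood at 22.1 CPM per kb, Adam23 at 17.2, Adam9 at 17, Mmp16 at 13.5 and Mmp17 at 10.4. Adamts1 was 13th of 39, at 2.50 CPM per kb, and Adamts9 was 36th, at 0.304 CPM per kb. The lowest member was Adamtsl2, at 0.192 CPM per kb. In PI WT, Adamts1 was 8th, at 7.25 CPM per kb, and Adamts9 was 19th, at 1.39 CPM per kb. These levels divide by the summed exon length of all annotated transcripts, so they rank genes only roughly.

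**Figure D1:**
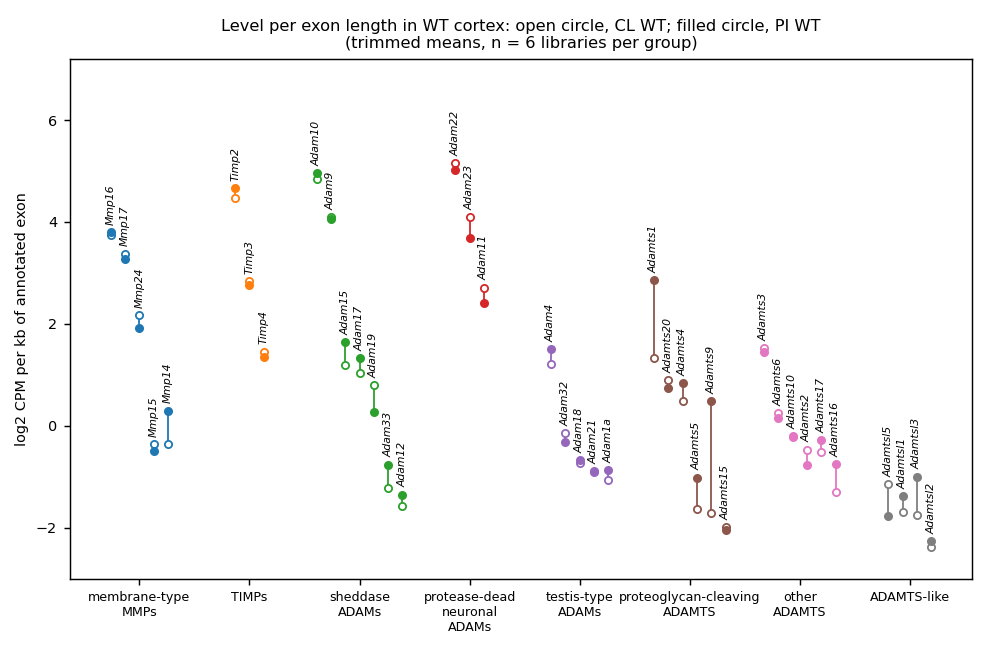
Level of each of the 39 members per kilobase of annotated exon, on a log2 CPM per kb axis, grouped by subfamily along the horizontal axis. Open circles are the trimmed means of CL WT and filled circles those of PI WT, joined by a line for each gene. Adam22 and Adam10 are the highest, at 35.8 and 28.8 CPM per kb in CL WT, and the longest lines belong to Adamts9 and Adamts1.

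The first comparison asked which members differed between PI and CL cortex of WT animals. Of the 39 members, 5 were higher in PI and 2 were lower. The largest increases were in Adamts9 and Adamts1, secreted proteases that cut versican and other proteoglycans, at 4.58-fold and 2.90-fold. Mmp14, Adam15 and Adamts5 rose by less than 1 on the log2 scale, and Adam23 and Adam19 fell. Over the table, with 14489 genes, 10.6% were called, 5.20% higher and 5.40% lower, so 7 of 39 members compares with a background of that size. Of the called genes 49.1% were higher, and 37.7% after centring groups on their median genes, a shift of 0.0329. Under that centring Adamts5 was no longer called (adjusted p = 0.0546) and Adam11, which is lower in PI, was. The median difference over the members was 0.05, beside 0.01 over all genes. Recoverable ranges did not overlap for 16 members, 10 higher and 6 lower, against 26.3% of all genes. Called genes with a difference of at least 1 were 2 members and 1.69% of all genes. At an unadjusted p under 0.05 there were 15 members, against 23.9% of all genes.

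Among the 6 ADAMTS proteases that cut proteoglycans, 3 were called in WT, all higher, and the median difference was 0.49. Adamts9 ranged from 3.69 to 6.68 CPM in CL WT, with a median of 4.22 CPM. In PI WT it ranged from 18.9 to 25.4 CPM, with a median of 20.1 CPM. All recoverable PI values lay above those of CL, and the difference was 2.19 (SE 0.22, adjusted p = 9.01e-05). Adamts1 ranged from 11.4 to 15.6 CPM in CL WT, around a median of 13.1 CPM, and from 31.0 to 44.3 CPM in PI WT, around 39.9 CPM. The groups did not overlap, with a difference of 1.54 (SE 0.16, adjusted p = 1.15e-04). Adamts5, an aggrecanase, ranged from 2.78 to 3.89 CPM in CL WT and from 4.93 to 5.67 CPM in PI WT. It was called with a difference of 0.62 (SE 0.18, adjusted p = 0.0464), and with any of the 12 libraries left out its adjusted p was over the threshold, at 0.0522 to 0.102. Adamts4, the other classical aggrecanase, differed by 0.35 (SE 0.18, adjusted p = 0.265), and its groups overlapped. Adamts15 and Adamts20 differed by -0.05 and -0.16 and were not called.

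Adamts1 and Adamts5 lie next to each other on chromosome 16, on the same strand, 53059 bases apart with 0 protein-coding genes between them. In GRCm38 with GENCODE M21, Adamts1 spans 85793827 to 85803113 and Adamts5 spans 85856173 to 85901828. Adamts9 is on chromosome 6, from 92772699 to 92943492. Adamts9 shares 9.18% of its exon bases with A730049H05Rik and 2.82% with Gm15737, both on the other strand. The promoter windows of Adamts1 and Adamts9 are shown because both rose in both genotypes, and that of the inhibitor Timp1 because its levels in PI and CL did not overlap in either. Each window runs from 250 bases before to 50 bases after the start site, in RefSeq on GRCm38.p6, 5′ to 3′ on the gene's strand. Capitals mark the GC box GGGCGG or its reverse complement, and in the Timp1 window also ACGTG, the core of the hypoxia response element.
Adamts1, chr16:85803064-85803363, minus strand: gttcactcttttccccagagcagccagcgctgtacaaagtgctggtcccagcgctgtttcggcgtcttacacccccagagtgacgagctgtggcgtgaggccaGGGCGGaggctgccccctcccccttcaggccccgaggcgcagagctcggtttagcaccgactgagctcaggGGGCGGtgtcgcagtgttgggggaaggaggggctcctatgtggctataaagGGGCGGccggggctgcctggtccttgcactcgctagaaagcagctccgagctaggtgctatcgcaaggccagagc
Adamts9, chr6:92943485-92943784, minus strand: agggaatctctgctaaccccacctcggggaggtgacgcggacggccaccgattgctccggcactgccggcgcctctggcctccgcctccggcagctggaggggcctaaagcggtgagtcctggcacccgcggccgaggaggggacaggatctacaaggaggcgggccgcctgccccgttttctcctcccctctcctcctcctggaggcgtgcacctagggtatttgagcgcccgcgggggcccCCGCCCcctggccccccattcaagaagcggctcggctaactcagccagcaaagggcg
Timp1, chrX:20869916-20870215, plus strand: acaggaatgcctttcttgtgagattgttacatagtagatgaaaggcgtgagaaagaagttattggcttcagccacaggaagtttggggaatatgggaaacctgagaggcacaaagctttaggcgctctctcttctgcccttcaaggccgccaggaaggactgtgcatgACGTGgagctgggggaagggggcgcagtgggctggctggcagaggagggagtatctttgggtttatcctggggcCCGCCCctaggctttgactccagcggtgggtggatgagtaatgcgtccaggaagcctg

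The Adamts1 window held 3 GC boxes, at -147, -76 and -25 from the start site. The Adamts9 window held 1, at -7, and the Timp1 window 1, at -8. GC boxes were in 35.7% of 32851 RefSeq windows of this length. The Timp1 window held 1 ACGTG, at -82, a motif present in 19.6% of windows. The AP-1 motif TGANTCA (7.81% of windows), the cyclic AMP response element TGACGTCA (1.79%), the STAT motif TTCNNNGAA (8.3%) and the CArG box (1.63%) had no match in these 3 windows. Both strands were searched for exact matches only, so sites with variant letters were not counted. A HIF core can overlap a cyclic AMP response element. Windows were found for 29 of the 45 genes with matching symbols, and a match is a description of the sequence only.

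Of the 5 membrane-type MMPs, which are tethered to the cell surface, Mmp14 was called in WT and the others were not. Mmp14, the activator of secreted pro-MMPs, ranged from 4.28 to 5.11 CPM in CL WT, around a median of 4.59 CPM, and from 6.50 to 8.51 CPM in PI WT, around 7.21 CPM. The groups did not overlap, and the difference was 0.66 (SE 0.15, adjusted p = 0.0156). Mmp24, a neuronal membrane-type MMP, ranged from 20.3 to 21.6 CPM in CL WT and from 15.7 to 19.5 CPM in PI WT. Its ranges did not overlap but the test was not passed (difference -0.27, SE 0.10, adjusted p = 0.116). Differences were 0.06 for Mmp16, -0.10 for Mmp17 and -0.14 for Mmp15, with overlapping groups. Mmp24 shares 13.6% of its exon bases with BC029722 on the other strand. Whether the counting used strand is not given in the sources used here, so reads of such pairs cannot be told apart.

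None of the 3 TIMP members was called in WT. Timp1 is not a member: it was listed in the 3 tables with a PI group and not in that of CL KO and CL WT. As it entered through the group where it is high, its values between sides are a description, with no test. Timp1, an inhibitor that astrocytes and other cells make after injury, ranged from 0.577 to 1.37 CPM in CL WT, around a median of 0.859 CPM. In PI WT it ranged from 4.35 to 7.77 CPM, around 5.61 CPM. The groups did not overlap, with a difference of 2.71 (SE 0.36), which was 1.83 with a pseudocount of 1 CPM because the CL values lie near the limit of 3 reads. With that pseudocount the difference of Adamts9 was 1.97. Timp1 lies inside Syn1 on the other strand and shares 0 exon bases with it. Syn1, a synaptic vesicle gene, fell by 0.23 (SE 0.05, adjusted p = 0.0102). Timp2 ranged from 84.9 to 88.7 CPM in CL WT and from 88.9 to 108 CPM in PI WT, and the difference of 0.19 did not pass (SE 0.08, adjusted p = 0.14). Timp3, which binds the matrix and also inhibits ADAM17, differed by -0.09 (SE 0.08, adjusted p = 0.59) and Timp4 by -0.11 (SE 0.14, adjusted p = 0.701). Timp3 lies inside Syn3 and shares 21.3% of its exon bases with it. Timp4 lies inside Syn2 and shares 1.53%, and Syn2 rose by 0.31 in PI WT (SE 0.05, adjusted p = 0.00232).

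Of the 7 sheddase ADAMs, 1 rose and 1 fell in WT. Adam15, an ADAM of vessel and other cells, ranged from 12.4 to 15.7 CPM in CL WT and from 17.5 to 21.0 CPM in PI WT, with no overlap. The difference was 0.46 (SE 0.12, adjusted p = 0.026). Adam19, which can cut neuregulins, ranged from 11.1 to 14 CPM in CL WT and from 7.59 to 9.30 CPM in PI WT, again without overlap. It fell by 0.53 (SE 0.13, adjusted p = 0.0237). Both calls depended on the libraries, since Adam15 was called in 6 and Adam19 in 7 of 12 fits that each left out 1 library. Adam17, the TNF-releasing sheddase, differed by 0.29 (SE 0.12, adjusted p = 0.149), and Adam10 by 0.10 (SE 0.06, adjusted p = 0.295). Adam15 shares 20.6% of its exon bases with an antisense gene, 4731419I09Rik, and Adam19 shares 8.25% and 6.75% with Gm16033 and Gm16034.

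Among the 3 protease-dead neuronal ADAMs, Adam23 was called and all 3 had negative differences. Adam23, a receptor for LGI1 like Adam22, ranged from 292 to 335 CPM in CL WT, around a median of 302 CPM, and from 213 to 252 CPM in PI WT, around 230 CPM. All recoverable PI values were below those of CL, and Adam23 fell by 0.41 (SE 0.08, adjusted p = 0.00445), 1.33-fold. Adam11 differed by -0.30 (SE 0.09, adjusted p = 0.0547) and Adam22 by -0.14 (SE 0.05, adjusted p = 0.118), and neither overlapped between sides. With the replicate block, which scaled the variances of all genes by a shared correlation of 0.1127, Adam11 was called as lower (adjusted p = 0.0372). That setting narrows every SE alike and is not a paired test of the gene. The ligands of these receptors, Lgi1 to Lgi4, had 0 of 4 genes called, with a median difference of -0.06. None of the 5 testis-type ADAMs, the 6 other ADAMTS proteases and the 4 ADAMTS-like proteins was called. In these groups the smallest adjusted p values were those of Adamts16, at 0.0859, and Adamtsl3, at 0.0901.

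**Figure D2:**
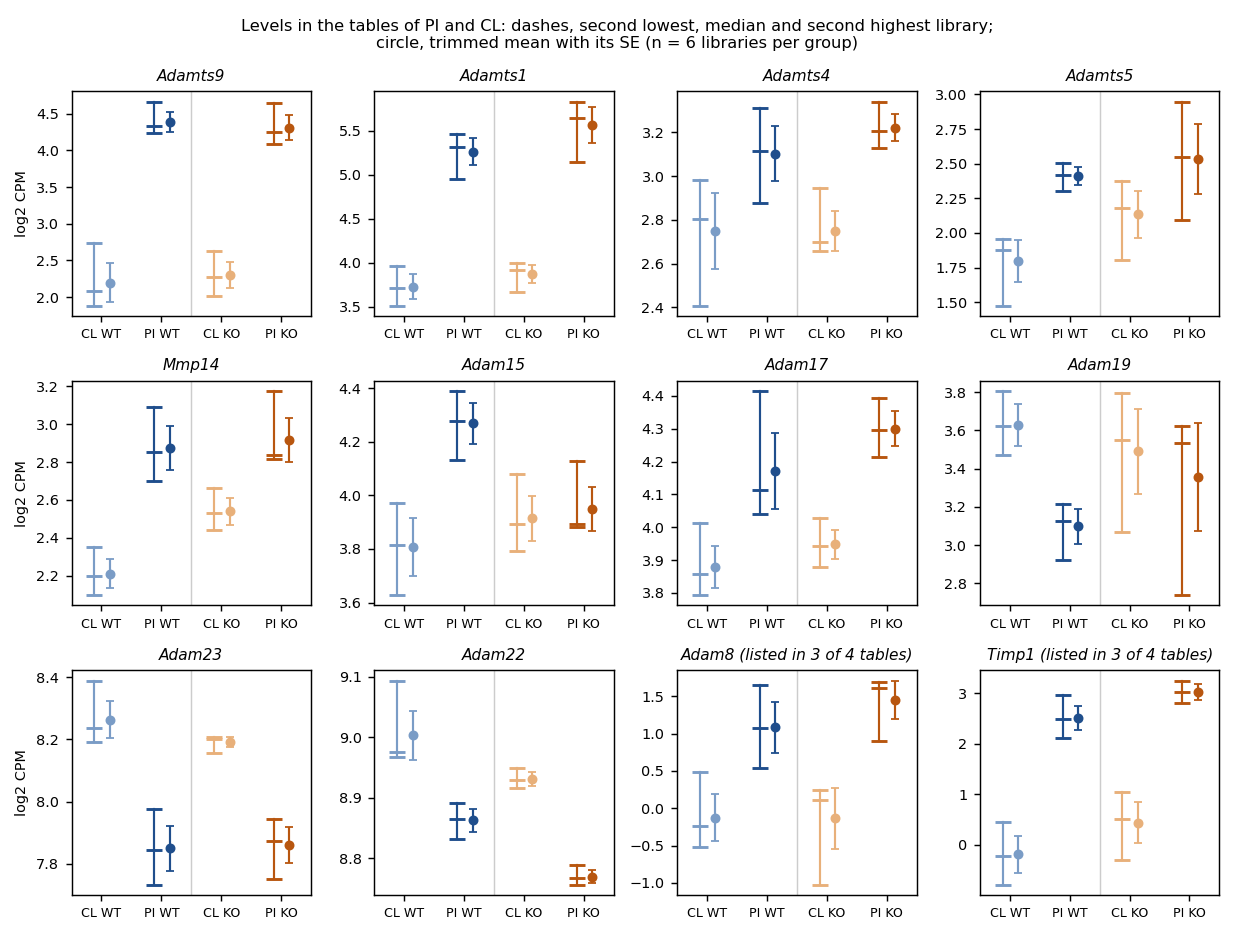
Levels on a log2 CPM axis of the 10 members called between PI and CL in either genotype, with Adam8 and Timp1, which were listed in 3 of 4 tables. For each group the dashes give the second lowest library, the median and the second highest library, and the circle gives the trimmed mean with its SE (n = 6 libraries). Adamts9, Adamts1 and Timp1 stand above CL in the PI groups of both genotypes without overlap, and Adam23 stands below.

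The same question was put to KO animals. Of the 39 members, 4 were higher in PI and 2 were lower. Adamts9 and Adamts1 again had the largest differences, at 4.02-fold and 3.24-fold, and Adam17 and Adamts4 were called as higher. Adam23 and Adam22, both receptors for LGI1, fell. Of all 14338 genes 10% were called, 5.11% higher and 4.94% lower, beside 6 of 39 members. Of the called genes 50.8% were higher, and 36.7% after centring, a shift of 0.0352. The median difference was -0.0026 over the members and -7e-04 over all genes. Ranges did not overlap for 14 members, 9 higher and 5 lower, against 26.8% of all genes. Called genes with a difference of at least 1 were 2 members and 1.61% of all genes, and an unadjusted p under 0.05 was found for 13 members and 24.9% of all genes. Without CL KO replicate 6, 5 members were called, since Adam17 was not, and 9.07% of all genes.

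Adamts9 ranged from 4.05 to 6.19 CPM in CL KO, around a median of 4.86 CPM, and from 17.1 to 25.1 CPM in PI KO, around 19.0 CPM. The groups did not overlap, and the difference was 2.01 (SE 0.20, adjusted p = 7.14e-05). Adamts1 ranged from 12.7 to 15.9 CPM in CL KO, around 15.1 CPM, and from 35.4 to 57.0 CPM in PI KO, around 49.9 CPM. It also showed no overlap, with a difference of 1.70 (SE 0.17, adjusted p = 9.09e-05). Adamts4 ranged from 6.30 to 7.72 CPM in CL KO and from 8.76 to 10.1 CPM in PI KO. It was called at a difference of 0.47 (SE 0.14, adjusted p = 0.0457), and in 3 of 12 fits without 1 library. It was not called after centring groups on their median genes (adjusted p = 0.0571). Adamts5 differed by 0.40 (SE 0.25, adjusted p = 0.362), with a wider spread in PI KO, from 4.27 to 7.72 CPM.

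Adam17 ranged from 14.7 to 16.3 CPM in CL KO, around a median of 15.4 CPM, and from 18.6 to 21.0 CPM in PI KO, around 19.7 CPM. The groups did not overlap, and the difference was 0.35 (SE 0.09, adjusted p = 0.0332). This call held in 4 of 12 fits without 1 library and was lost without CL KO replicate 6. Adam15 differed by 0.03 in KO (SE 0.12, adjusted p = 0.891) and Adam19 by -0.13 (SE 0.27, adjusted p = 0.811). Adam19 had a wide spread in PI KO, from 6.68 to 12.3 CPM. Adam8, an ADAM of leukocytes and microglia that is not a member, ranged from 0.493 to 1.19 CPM in CL KO and from 1.86 to 3.24 CPM in PI KO. The difference was 1.59 (SE 0.42) in KO and 1.21 (SE 0.42) in WT. Like Timp1, Adam8 was listed only in tables with a PI group, so these values are given with no test, and its CL values lie near the limit of 3 reads.

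Adam23 ranged from 285 to 296 CPM in CL KO, around a median of 294 CPM, and from 216 to 246 CPM in PI KO, around 234 CPM. It fell by 0.33 (SE 0.06, adjusted p = 0.0048). Adam22 ranged from 483 to 494 CPM in CL KO and from 433 to 442 CPM in PI KO, the narrowest ranges relative to level among the called members in KO. It fell by 0.16 (SE 0.05, adjusted p = 0.0399), a call kept in 4 of 12 fits without 1 library. Adam11 differed by -0.27 (SE 0.12, adjusted p = 0.169), and 0 of the 4 LGI ligands were called. Adamts2, a procollagen protease, ranged from 6.01 to 7.93 CPM in CL KO and from 4.27 to 5.33 CPM in PI KO. Its difference of -0.59 did not pass (SE 0.18, adjusted p = 0.0523). It did after centring (adjusted p = 0.0385) and with the replicate block (adjusted p = 0.0391), which only scaled all variances by a shared correlation of 0.0855.

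Of the membrane-type MMPs in KO, none was called. Mmp14 ranged from 5.43 to 6.34 CPM in CL KO and from 7.05 to 9.03 CPM in PI KO, without overlap, and differed by 0.37 (SE 0.15, adjusted p = 0.152). Mmp15 differed by -0.44 (SE 0.17, adjusted p = 0.124), Mmp24 by -0.12, Mmp17 by 0.10 and Mmp16 by -0.01. No TIMP member was called. Timp3 differed by -0.29 (SE 0.10, adjusted p = 0.0808), and it was called after centring groups on their median genes. Timp2 differed by -0.03 and Timp4 by -0.02. Timp1 ranged from 0.812 to 2.07 CPM in CL KO and from 7.04 to 9.52 CPM in PI KO, without overlap. The difference was 2.59 (SE 0.34), or 1.94 with a pseudocount of 1 CPM, again as a description with no test.

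**Figure D3:**
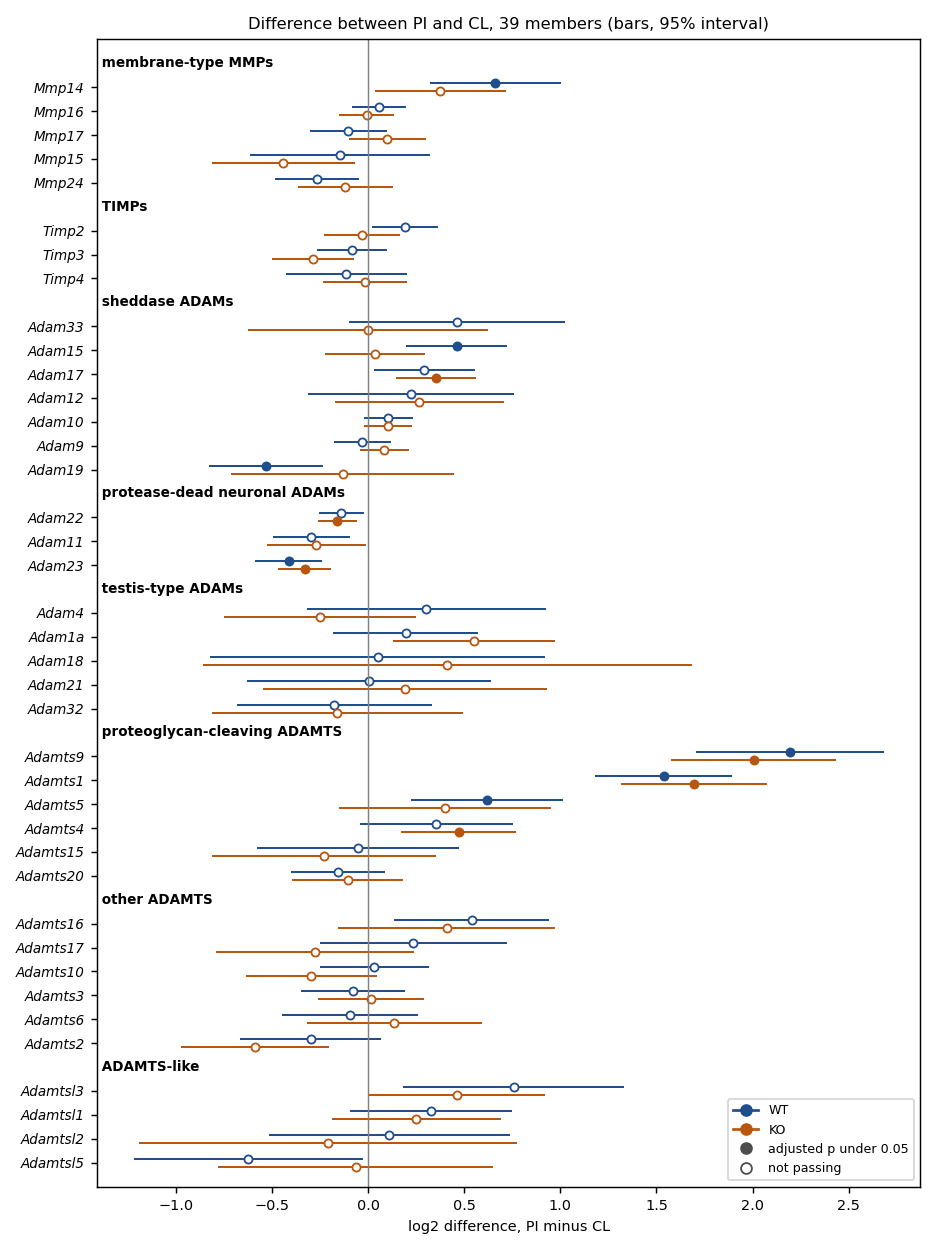
Difference between PI and CL on a log2 axis for each of the 39 members, by subfamily, in WT and in KO, with bars for the 95% interval. Filled circles mark an adjusted p under 0.05. Adamts9 and Adamts1 lie farthest to the right in both genotypes, at 2.19 and 1.54 in WT and 2.01 and 1.70 in KO, and most other intervals reach 0.

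Set side by side, 3 members were called in both genotypes (Adamts1, Adamts9 and Adam23), 4 only in WT and 3 only in KO. Over all genes in both tables, 850 were called in both, 670 only in WT and 583 only in KO. All 10 members called in either had the same sign in both, as had 2047 of the 2103 genes called in either. Over all 39 members 28 had the same sign, 71.8%, beside 71.0% of the 14211 genes in both tables. The difference between genotypes was tested directly, as the PI minus CL difference in KO minus that in WT. It passed for 0 members and 0% of all genes in the limma-based test, with 1 member and 4.55% of all genes at an unadjusted p under 0.05. That member was Adam15, at -0.43 (SE 0.17, unadjusted p = 0.0225, adjusted p = 0.992), for which the difference between sides was 0.46 in WT and 0.03 in KO. Timp2 came next, at -0.23 (SE 0.12, unadjusted p = 0.083), and then Adamts10, at -0.33 (SE 0.20, unadjusted p = 0.114). Adamts9 had an interaction of -0.19 with a 95% interval from -0.87 to 0.49, and Adamts1 of 0.16 with an interval from -0.39 to 0.70. The interval for Adam23 ran from -0.13 to 0.30.

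The design text names the comparison of WT with KO animals as the aim, and within each side no member was called between genotypes. In PI cortex 0 of 39 members and 0.0208% of all genes were called by the limma-based test, and 3 members and 5.75% of genes had an unadjusted p under 0.05. In CL cortex 0 members and 0.0279% of genes were called, and 4 members and 5.73% of genes had an unadjusted p under 0.05. The largest difference of a member was 0.65 in either side, for Adam33 in PI and Adamtsl3 in CL. The median absolute difference of the members was 0.14 in PI and 0.11 in CL, beside 0.22 and 0.25 between sides in WT and KO. Over all genes this median was 0.09 in PI and 0.08 in CL, beside 0.13 and 0.15 between sides in WT and KO.

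In PI, the smallest p was that of Adam15, which ranged from 17.8 to 21.4 CPM in PI WT and from 15.1 to 18.0 CPM in PI KO. The ranges overlapped slightly, and the difference was -0.31 (SE 0.11, unadjusted p = 0.0159, adjusted p = 0.854). Mmp17, a glycosyl-phosphatidylinositol-anchored MMP, ranged from 59.5 to 69.8 CPM in PI WT and from 71.8 to 83.1 CPM in PI KO. It did not overlap but did not pass, at 0.23 (SE 0.08, unadjusted p = 0.0191, adjusted p = 0.854). The ranges of Adam22 did not overlap in PI either, at a difference of -0.09 (SE 0.05, unadjusted p = 0.0868, adjusted p = 0.854). Adam33 ranged from 2.45 to 3.86 CPM in PI WT and from 1.87 to 2.59 CPM in PI KO, with a difference of -0.65 (SE 0.27, unadjusted p = 0.0297, adjusted p = 0.854). Adamts1 differed by 0.31 (95% interval -0.11 to 0.72) and Adamts9 by -0.07 (-0.44 to 0.29). Timp1 differed by 0.52 (SE 0.23, unadjusted p = 0.0433, adjusted p = 0.854), with overlapping ranges. The other MMP and TIMP members had differences from -0.09 (Timp3) to 0.20 (Mmp24), with Timp2 at -0.07, Mmp16 at -0.05, Mmp15 at 0.02, Mmp14 at 0.05 and Timp4 at 0.18. Among genes listed only in this table, Mmp3, a stromelysin, ranged from 1.73 to 4.41 CPM in PI WT and from 1.07 to 7.0 CPM in PI KO. Mmp12, the macrophage elastase, ranged from 2.01 to 2.53 CPM in PI WT and from 0.380 to 2.35 CPM in PI KO, where a value was under the limit of 3 reads. Neither they nor Adamtsl4 were called, with adjusted p values of 0.996, 0.882 and 0.854.

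In CL, Timp2 had the smallest p. It ranged from 82.7 to 86.7 CPM in CL WT and from 91.6 to 97.0 CPM in CL KO, without overlap, and differed by 0.16 (SE 0.05, unadjusted p = 0.0104, adjusted p = 0.736). Adamtsl3, a secreted protein with thrombospondin repeats and no protease domain, ranged from 1.73 to 2.95 CPM in CL WT and from 3.05 to 3.75 CPM in CL KO. Its difference was 0.65 (SE 0.26, unadjusted p = 0.025, adjusted p = 0.825). Mmp14 ranged from 4.18 to 4.99 CPM in CL WT and from 5.33 to 6.21 CPM in CL KO, at 0.34 (SE 0.15, unadjusted p = 0.043, adjusted p = 0.853). Adam1a was the other member with an unadjusted p under 0.05, at -0.43 (SE 0.19, unadjusted p = 0.0449, adjusted p = 0.86). Adam1a shares 63.7% of its exon bases with Gm42878 and 24% with Mapkapk5 on the same strand, so its reads are uncertain. The ranges of these 4 members did not overlap, nor did those of Adam22 (difference -0.06, adjusted p = 0.923), but none passed the adjusted test. The share of all genes without overlap was not computed between genotypes on either side. These gaps therefore have no background to be read against and are a description only. In the same comparison all 9 fibroblast markers and all 10 microglial markers had positive differences, with medians of 0.30 and 0.18, and 0 of 10 oligodendrocyte markers did, with a median of -0.155. Positive differences were also found for 9 of 11 endothelial, 4 of 8 astrocyte, 5 of 13 neuronal and 2 of 8 mural markers, beside 7054 of all 14323 genes. None of these markers was called. In PI, positive differences were found for 7 of 9 fibroblast, 9 of 10 microglial and 8 of 10 oligodendrocyte markers, with medians of 0.09, 0.25 and 0.06. The PI counts for the other lists were 4 of 11 endothelial, 6 of 8 astrocyte, 7 of 13 neuronal and 6 of 8 mural markers. Over all genes in PI, 7009 of 14452 were positive, and none of these markers was called. The fibroblast sums ran from 49.4 to 62.2 CPM in CL WT and from 57.2 to 72.0 CPM in CL KO, and the microglial sums from 183 to 197 CPM and from 194 to 218 CPM. Those of oligodendrocytes ran from 2231 to 2438 CPM in CL WT and from 1783 to 2429 CPM in CL KO. Their part in the members' differences was not tested. The other MMP and TIMP members differed by 0.31 (Mmp15), 0.11 (Timp3), 0.09 (Timp4), 0.06 (Mmp24), 0.02 (Mmp17) and 0.02 (Mmp16). Without CL KO replicate 6, again 0 members were called.

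**Figure D4:**
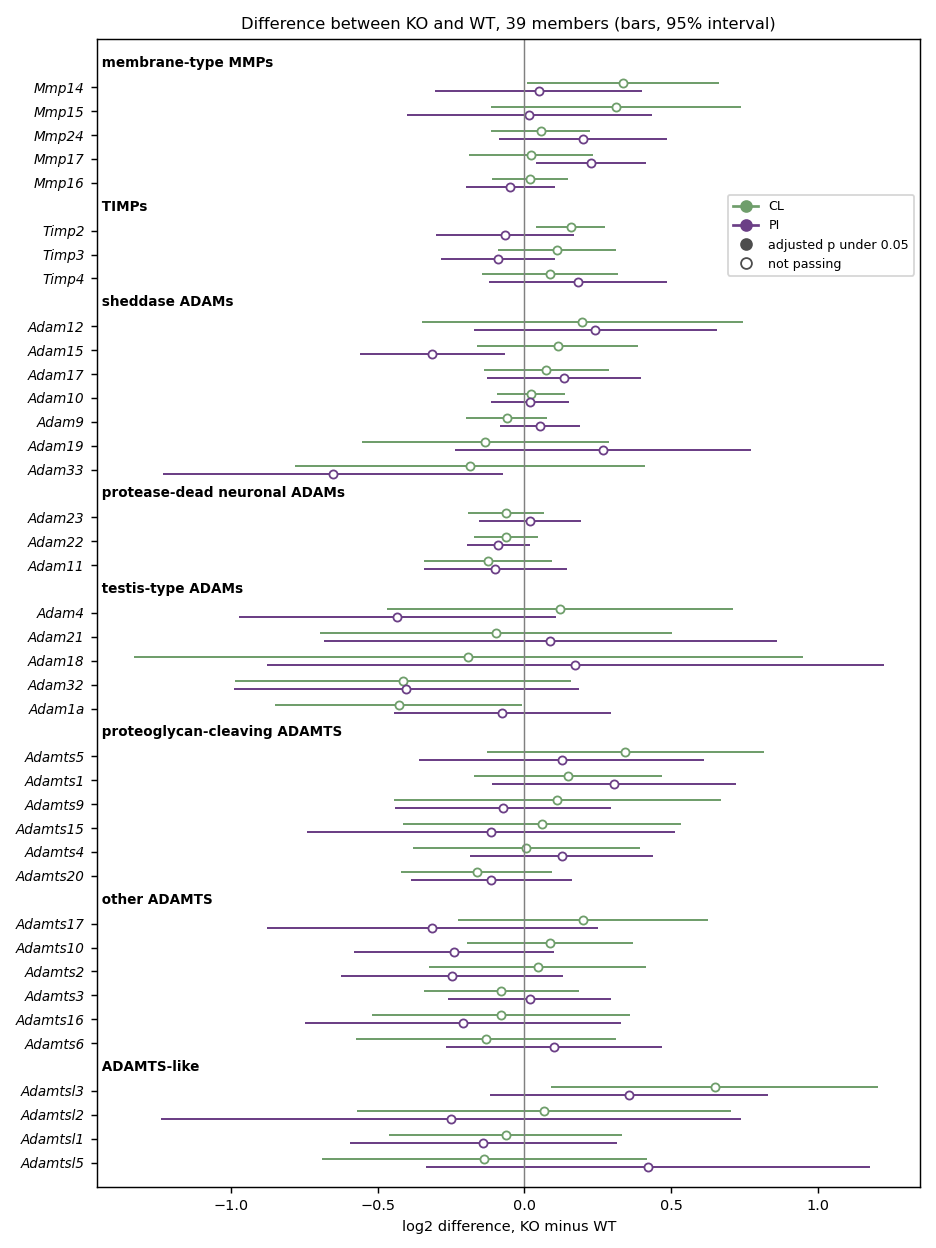
Difference between KO and WT on a log2 axis for each of the 39 members, by subfamily, in CL and in PI, with bars for the 95% interval. All circles are open because no adjusted p was under 0.05. The largest differences are 0.65 for Adamtsl3 in CL and -0.65 for Adam33 in PI.

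Other genes that act with these proteases were counted from lists chosen by function, with earlier results of these data known. Of 6 listed plasminogen activation genes, 2 rose and 1 fell in WT, and 3 rose in KO. Anxa2, a cell-surface plasminogen receptor, rose by 1.25 in WT (adjusted p = 0.00271) and 1.02 in KO (adjusted p = 0.02), and Plat, tissue plasminogen activator, by 0.46 (adjusted p = 0.0107) and 0.50 (adjusted p = 0.0111). Serpini1, neuroserpin, fell by 0.34 in WT (adjusted p = 0.0206).

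Of 13 listed other regulators of metalloproteinases, 3 rose and 1 fell in WT and 2 rose and 2 fell in KO. A2m, a broad protease trap, rose from a range of 3.91 to 6.19 CPM in CL WT to 30.8 to 37.7 CPM in PI WT, a difference of 2.84 (SE 0.18, adjusted p = 2.11e-06). In KO the difference was 3.60 (SE 0.23, adjusted p = 3.73e-06). Thbs1, thrombospondin 1, rose by 2.06 in WT (adjusted p = 0.00733) and 1.79 in KO (adjusted p = 0.0314). Pcsk5, a convertase that removes prodomains, rose by 0.51 in WT (adjusted p = 0.0337), and Spock3, a testican proteoglycan, fell by 0.49 (adjusted p = 0.00664). Of 11 listed lecticans and their partners, Tnc, tenascin C, rose by 1.71 in WT (adjusted p = 0.00699), and no lectican was called in WT. In KO, Tnc rose by 1.82 (adjusted p = 0.00575) while Bcan, brevican, fell by 0.41 (adjusted p = 0.0474) and Tnr fell by 0.26 (adjusted p = 0.0277).

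Of 7 listed partners of ADAM10 and ADAM17, 2 rose in WT and 0 were called in KO. Frmd8 and Rhbdf1, both partners of ADAM17, rose in WT by 0.58 (adjusted p = 0.0257) and 0.62 (adjusted p = 0.0456). In KO they differed by 0.57 (adjusted p = 0.0594) and 0.61 (adjusted p = 0.0512), and the interaction was called for 0 of the 7 partners. Of 22 listed substrates of these sheddases, 5 rose and 2 fell in each genotype. Cd44, a hyaluronan receptor, rose by 2.36 in WT (adjusted p = 5.7e-06), Tnfrsf1a, a TNF receptor, by 1.85 (adjusted p = 3.32e-05), and Hbegf, an epidermal growth factor receptor ligand, by 1.04 (adjusted p = 0.00209). Icam1, counted among the 5 that rose in WT, differed by 1.83. Like Timp1, it was listed only in tables with a PI group, so its value is a description with no test. The membrane chemokine Cx3cl1 fell by 0.40 (adjusted p = 0.00548) and App by 0.22 (adjusted p = 0.0101). No gene of these lists was called between genotypes on either side.

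Markers of some cell types, but not of all, also differed between PI and CL cortex. Of 10 reactive astrocyte genes 9 rose in WT, and their summed level ran from 142 to 169 CPM over CL WT and from 487 to 561 CPM over PI WT libraries. In KO 8 of 9 listed rose, from 141 to 155 CPM in CL to 464 to 650 CPM in PI. Of 11 monocyte and macrophage markers 4 were listed and 2 rose in each genotype, with sums from 13.7 to 15.9 CPM in CL WT and 35.5 to 46.3 CPM in PI WT. In KO these sums ran from 14.7 to 17.8 CPM and from 39.9 to 50.3 CPM. Lcn2, Steap4 and Aspg of the reactive astrocyte list and Msr1 of the monocyte list were listed only in tables with a PI group. As with Timp1, the counts and sums that include them are a description with no test. Of 12 neutrophil markers only Csf3r was listed between sides, and it was not called, with sums at 1.33 to 1.61 CPM in PI WT and 1.35 to 1.69 CPM in CL WT. Of 13 neuronal markers 4 fell in WT, and 4 fell and 1 rose in KO. Their sums fell in range from 9982 to 10620 CPM in CL WT to 8600 to 9400 CPM in PI WT, and from 9933 to 10320 CPM to 8332 to 9103 CPM in KO. Of 10 microglial markers 3 rose and 3 fell in WT and 3 rose and 1 fell in KO. None of the 8 listed mural markers was called, and of 11 endothelial markers 1 fell in WT and 2 in KO. Of 8 astrocyte markers 1 rose and 3 fell in WT, and 1 rose and 1 fell in KO. Of 9 fibroblast markers 1 rose and 1 fell in each genotype, and of 10 oligodendrocyte markers 2 fell in WT and 0 were called in KO. Of 9 choroid plexus markers 1 was listed and it was not called. The part of these shifts in the members' differences was not tested, and in bulk tissue fewer cells of a type and less RNA per cell cannot be told apart.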

How the data were processed

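Ribosome-depleted total RNA libraries (CORALL kit, per the labels' protocols) of 24 cortex samples were analysed. The authors deposited log2 CPM values in 4 tables, each with 2 groups and scaled on its own, so tests stayed within a table, while interactions joined the tables of PI and CL. The build was mm10, per the submitters' processing notes; the aligner and counting method are not given in the sources used here. No label records that the deposited log2 values were drawn in to group quartiles. For a gene in 1 group, 4 of 6 values could be solved from the ties (weights 0.75 and 0.25). Their mean, with a Winsorized sum of squares as error (residual degrees of freedom 6 within a table, 12 for the interaction), entered limma 3.58.1 (R 4.3.3) with a mean trend, two-sided, with Benjamini-Hochberg adjustment over all genes of the table. No count test was run. Samples were grouped by the labels, whose titles number the animals, and 0 columns were left unmatched. Sides of the same animal share its number. That pairing was left out of the main test because the extreme library of each gene is lost. Deviations of same-numbered libraries correlated with a median of 0.27 in WT and 0.02 in KO. Depth was read from the step between low CPM values, of which 64.5% to 90.2% per library were whole within 0.03 read. Members and lists were chosen with earlier results of these data known. Named are all MMP and TIMP members, all called members, the 3 members with the smallest p in each comparison of genotypes and in the interaction, genes with matching symbols listed in fewer tables, and up to 6 called genes per list with the smallest p in WT. An item of these lists is not reported here. Alternatives were limma on the deposited log2 values, a prior without trend, the replicate block, a pseudocount of 1 CPM, a filter at 0 log2 CPM, centring on the median gene and leaving out each library. On trimmed means the replicate block only scaled all variances by the consensus correlation of same-numbered libraries.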

Additional observations from a re-analysis of the deposited data

How the results depend on the processing

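Limma on the deposited values, whose spread had been narrowed, called 22 members in WT and 19 in KO between sides, and 7 in PI, 6 in CL and 5 for the interaction. With the replicate block on those values the counts were 22, 19, 6, 4 and 8. In the same order, the trimmed-mean test called 1537, 1440, 3, 4 and 0 of all genes, limma on the deposited values 6459, 6666, 2388, 2311 and 1940, and the replicate block on them 6614, 6759, 1800, 1868 and 2216. With the replicate block on trimmed means the members called were 8, 7, 0, 0 and 0. That block only scaled the variances of all genes by a shared correlation, so it could add calls but remove none. Adam11 was added in WT and Adamts2 in KO, and no other call between sides changed. A prior without trend, a pseudocount of 1 CPM, the filter and centring gave 6 or 7 members between sides and 0 elsewhere. The prior without trend lost Adam15 and Adam19 and added Adamts16 in WT, lost Adam22 and added Adam1a in KO, and called 1015 and 739 of all genes. Centring lost Adamts5 and added Adam11 in WT, and lost Adamts4 and added Adamts2 and Timp3 in KO. Leaving out 1 library gave 4 to 6 members in WT and 3 to 6 in KO, and 0 for the comparisons of genotypes and the interaction. The 4 left without PI WT replicate 3 or CL WT replicate 2 were Adam23, Adamts1, Adamts9 and Mmp14. The 3 left without PI KO replicate 2, 3 or 5 or CL KO replicate 3 or 5 were Adam23, Adamts1 and Adamts9. Without 1 library 1117 to 1468 of all genes were called in WT and 900 to 1602 in KO, lowest without CL KO replicate 5 (900) and PI KO replicate 2 (922). Adamts1, Adamts9 and Adam23 in both genotypes, and Mmp14 in WT, were called in all 19 alternatives. No difference of a named gene changed sign after being called. Between genotypes the numbers mark different animals; same-numbered libraries correlated with a median of 0.02 in PI and 0.02 in CL. Depth limits Adam18, and Timp1 and Adam8 in CL, whose values lie near the limit of 3 reads.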
